A study of Mus musculus with 28 samples.

Results

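Growth plate skeletal stem and progenitor cells (gpSSPCs) that lost Zmpste24 were compared with control gpSSPCs by bulk RNA sequencing. The members are the 6 gpSSPC RNA libraries, 3 conditional knockout (CKO) and 3 control, of 28 samples in the series. They were chosen by assay, cell population and genotype, so no measured value decided which libraries entered. All mice were 20 weeks old, on a C57BL/6 background, and carried Prx1-Cre, a driver active in limb mesenchyme and its descendants, with the Ai9 (td-Tomato) reporter. In CKO mice this Cre deleted floxed Zmpste24 (Z24). The characteristics of control and CKO libraries carry one genotype text, PrxCre; Z24fl/fl, so the groups were taken from the sample titles, and what alleles the RNA-seq control mice carried is not given by them. Each library was made from 1000 cells sorted as CD45- Ter119- CD31- Ai9+ CD73+, and the labels give no treatment. Whether 1 library pooled several animals is not stated, and no label says that libraries of a group came from separate mice. P-values here therefore measure the spread between these libraries only, and the deletion covers every Prx1 descendant rather than the growth plate alone.

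ZMPSTE24 is the zinc protease that trims farnesylated prelamin A into mature lamin A, and mice or patients without it develop progeroid disease with skeletal defects. Growth plate chondrocytes secrete a matrix built on collagen II fibrils, which carry collagens IX and XI, together with aggrecan and matrilins. They are derived from slowly dividing cells of the resting zone, some of which bear CD73. As they mature they become hypertrophic and secrete collagen X.

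Total counts were 2366909, 3196895 and 5035209 in control replicates 1, 2 and 3 and 1838028, 2596484 and 4047763 in CKO replicates 1, 2 and 3. Replicate 1 was the shallowest library of each group and held the fewest genes, 12981 in control and 12512 in CKO, against 16272 to 17207 in the other 4 libraries. When every library was thinned to 1838028 counts, replicate 1 still held 12375 and 12512 genes and the others 15169 to 15422. Replicates 2 and 3 of a group differed by no more than sampling noise for genes with 5 to 99 counts, at a chi-square per degree of freedom of 0.839 in control and 0.805 in CKO, whereas either of them differed from replicate 1 at 10.2 to 11.1. For genes with at least 20 counts and no upper limit the value for replicates 2 and 3 was 1.59 and 1.62, and 57.1 to 71.4 against replicate 1. Replicates 2 and 3 were therefore summed and counted as 1 sample, leaving 2 samples per group.

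Libraries with the same number deviated together from their group means. The correlations across 11000 genes, which are not independent replicates, were 0.585, 0.551 and 0.554 for numbers 1, 2 and 3. Control 3 with CKO 2 (0.544) and control 2 with CKO 3 (0.539) correlated about as well, so the values set replicate 1 against the others and do not pair 2 with 2 or 3 with 3. The first principal component held 68.4% of the variance and set both replicate 1 libraries apart from the other 4. CKO was therefore also compared with control within the replicate 1 pair and within the pair of summed replicates. Levels below are in CPM, counts divided by library size after scaling by the trimmed mean of M values, given in the order control 1, control 2 and 3 summed, CKO 1, CKO 2 and 3 summed. They are not divided by gene length, so levels are compared between samples and not between genes. Pair ratios are log2 of CKO over control after 0.5 CPM was added to each, which understates the ratio of low genes.

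Zmpste24 was counted first because it is the deleted gene. It had 11, 48 and 80 counts in control replicates 1 to 3 and 2, 21 and 29 in CKO replicates 1 to 3. At 4.48, 15.4, 1.11 and 7.71 CPM it was lower in CKO within each pair, with log2 pair ratios of -1.63 and -0.96, but CKO 2 and 3 lay above control 1. The fitted log2 change was -1.13 (SE 1.42, n = 2 per group, adjusted p = 1 in edgeR's quasi-likelihood test). The floxed exon 6 makes up 4.14% of the 3429-base transcript, and counts over the whole gene can include transcripts that lack it, so they check the labels only in part. Exon 6 is wholly coding, 1 of 10 exons, lies at chr4:121081172-121081313 on the minus strand (GRCm38, the build of the deposited counts) and has 142 bases, which is not a multiple of 3. It is shown, 5′ to 3′ in the sense of the gene, because its loss defines the CKO group.

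Zmpste24 exon 6: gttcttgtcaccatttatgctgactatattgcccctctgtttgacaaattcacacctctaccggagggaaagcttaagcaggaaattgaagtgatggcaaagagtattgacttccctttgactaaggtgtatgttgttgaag

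Across all genes the pairs shared little. Of 9355 genes with at least 20 counts in each pair, 111 were over 2-fold higher in CKO in both pairs (1.19% of the genes) and 157 were over 2-fold lower in both (1.68%), while 202 (2.16%) were past 2-fold in opposite directions. The pair ratios had the same sign in 51.5% of genes, and across genes their Pearson correlation was 0.048 and their Spearman correlation 0.051. Restricting to the 3027 genes with at least 200 counts gave a Pearson correlation of 0.099. The ratios spread more in the replicate 1 pair (SD 1.38) than in the deeper pair (SD 0.575). At 1.5-fold, 369 genes were higher in both pairs (3.94%), 457 lower in both (4.89%) and 642 opposite (6.86%), and at 4-fold 10 were higher (0.107%) and 13 lower (0.139%). The text below turns on genes that moved the same way in both pairs.

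**Figure D1:**
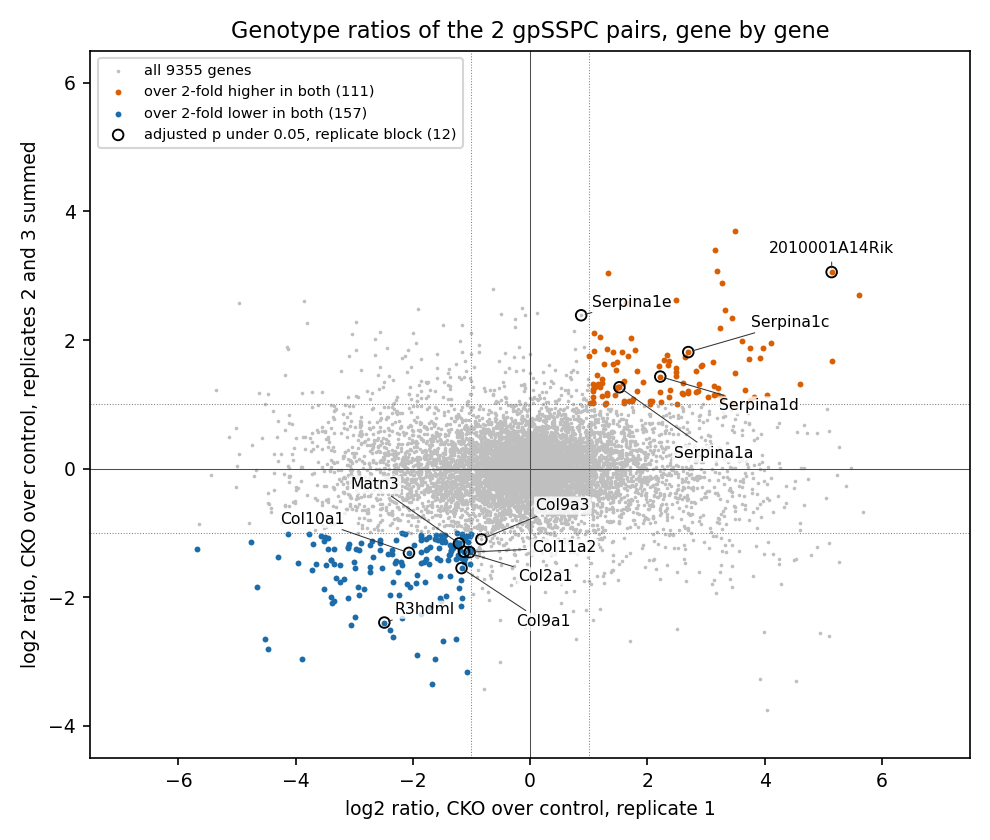
Each point is 1 of 9355 genes, with the log2 ratio of CKO over control in the replicate 1 pair on the x axis and in the summed replicates 2 and 3 on the y axis, and dotted lines at 2-fold. The cloud has no slope (Pearson 0.048), 111 genes sit in the upper right and 157 in the lower left past 2-fold, and the 12 circled genes passed an adjusted p of 0.05 with the replicate number as a block.

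Without the pairing, none of 12041 genes passed an adjusted p of 0.05 in edgeR's quasi-likelihood test (0% called), and 57 had an unadjusted p under 0.05 (0.473%), 37 higher (0.307%) and 20 lower (0.166%), all with a log2 change over 0.25, the study's size threshold. DESeq2 on the same summed samples called 1 gene higher and 0 lower. With the replicate number as a block, 12 of 12041 genes passed (0.0997%), 5 higher in CKO (0.0415%) and 7 lower (0.0581%), and 463 had an unadjusted p under 0.05 with a log2 change over 0.25 (3.85%). The blocked fit left 1 residual degree of freedom per gene, so its p-values lean on a spread estimated across genes. The 12 genes fall into a small number of families. The 7 that fell were the cartilage collagen genes Col2a1, Col9a1, Col9a3 and Col11a2, the matrilin gene Matn3, the hypertrophic collagen gene Col10a1, and R3hdml. The 5 that rose were the alpha-1-antitrypsin genes Serpina1a, Serpina1c, Serpina1d and Serpina1e, and the uncharacterised gene 2010001A14Rik. The names of Col9a3 and 2010001A14Rik were added once their values had been seen. In the same edgeR fit without the block all 12 had an adjusted p of 1 and an unadjusted p from 0.000812 to 0.109. In DESeq2 on each library as a sample, also without a block, 5 of the 12 passed: 2010001A14Rik (adjusted p = 1.95e-06), Serpina1d (3.59e-05), Col10a1 (0.000111), Col9a1 (0.00513) and Serpina1c (0.0465); replicates 2 and 3 count there as separate samples. With the block all 12 passed when replicate 3 was left out (adjusted p 1.2e-14 to 0.0023) and none did when replicate 2 was left out (0.0931 to 0.873). The log2 changes without replicate 2 kept their direction and were close to those with it, at 1.84 for Serpina1d, -1.22 for Col2a1 and -2.51 for R3hdml. None passed either when each library was entered as a sample of its own with the block (0.0893 to 0.25).

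**Figure D2:**
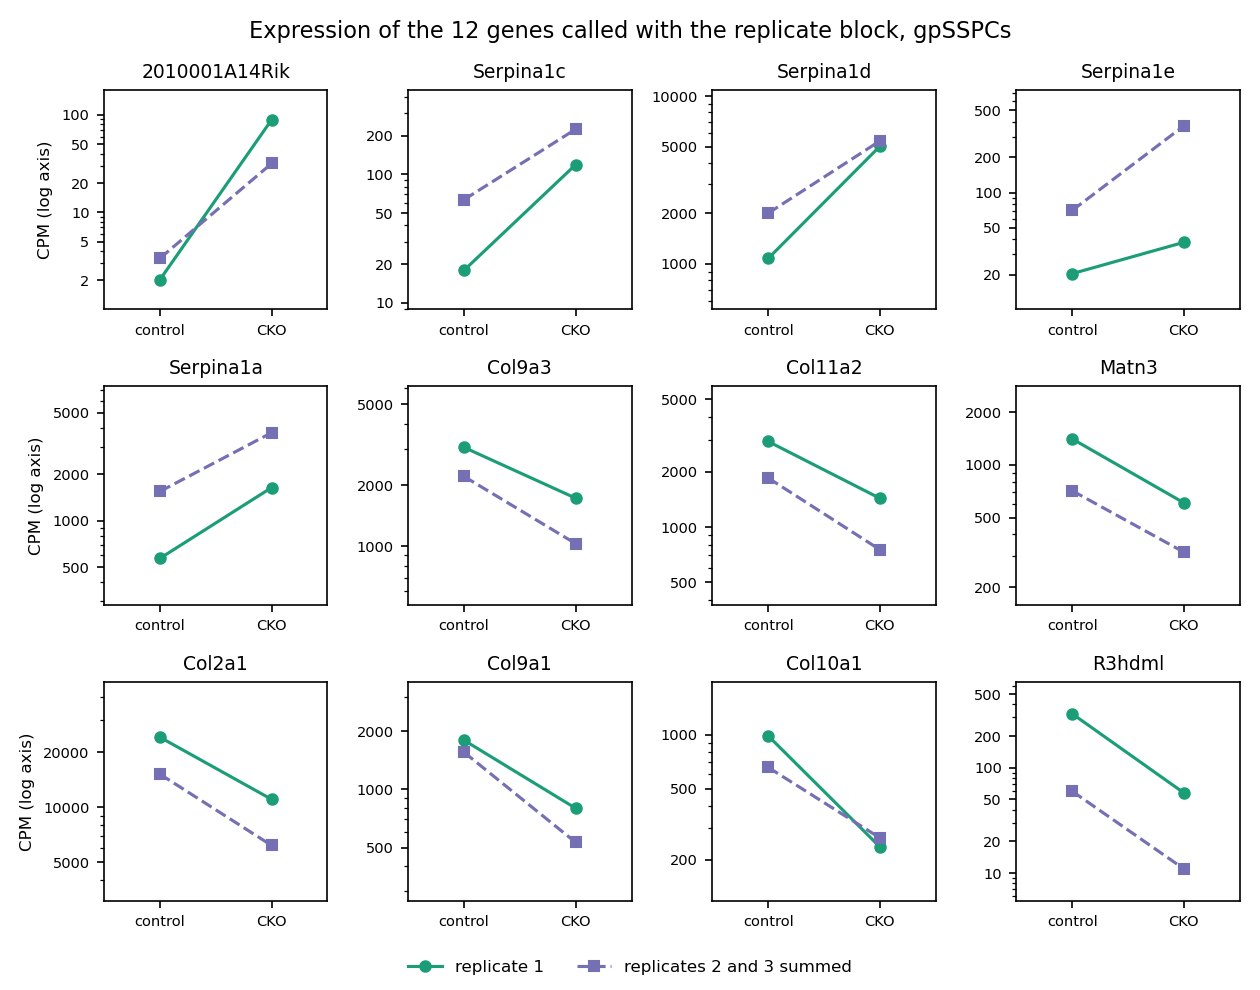
CPM on a log axis for the 12 genes called with the replicate block, with the replicate 1 pair as circles joined by a solid line and the summed replicates 2 and 3 as squares joined by a dashed line. Both lines slope up in each of the 5 genes that rose and down in each of the 7 that fell, and of the 12 genes Serpina1e alone differs more between the pairs than between genotypes in both groups.

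Of the cartilage matrix genes, 4 that encode chains of the collagen II, IX and XI fibril and the matrilin gene Matn3 fell in CKO gpSSPCs, while aggrecan and other matrix genes did not pass the test. Of 26 counted genes of the 27 in the list, 5 fell with the block (background 0.0581%) and none rose; 15 were lower in both pairs and 3 were higher in both, against 26.2% and 25.3% of all 9355 genes. The median log2 change of the list with the block was -0.27, beside -0.017 for all genes tested. Past 2-fold in both pairs were 4 lower and 0 higher, and past 1.5-fold 9 lower and 0 higher, beside 4.89% lower and 3.94% higher of all genes. In 12 genes both CKO samples lay below both controls and in 1 above, beside 12.8% and 11.4% of all genes. Fewer chondrocytes in a sorted sample and less RNA of these genes per chondrocyte cannot be told apart in bulk libraries.

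Col2a1, the chain of the collagen II homotrimer, stood at 24090, 15140, 11030 and 6178 CPM. Both CKO samples lay below both control samples, at 0.458 and 0.408 of the paired control. The log2 change with the block was -1.21 (SE 0.19, n = 2, adjusted p = 0.00169), and -1.19 (SE 0.58, adjusted p = 1) without it. Of the 3 collagen IX chains, whose product coats the collagen II fibril, Col9a1 stood at 1798, 1558, 799 and 532 CPM. Col9a3 stood at 3064, 2204, 1722 and 1028 CPM. In both genes the groups did not overlap, and they fell by 1.36 (SE 0.20, adjusted p = 0.0011) and 0.96 (SE 0.19, adjusted p = 0.0433) on the log2 scale with the block. Col9a2, at 1450, 1324, 926 and 680 CPM, had log2 pair ratios of -0.65 and -0.96 and did not pass (adjusted p = 0.202).

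Collagen XI nucleates the collagen II fibril. Its gene Col11a2 stood at 2933, 1854, 1436 and 753 CPM, each CKO sample below both controls, and fell by 1.16 on the log2 scale (SE 0.20, adjusted p = 0.00438, replicate block). Col11a1, at 2225, 2357, 1401 and 1194 CPM, also separated the groups but did not pass (log2 change -0.82, SE 0.20, adjusted p = 0.143). Summed over Col2a1, Col9a1, Col9a2, Col9a3, Col11a1 and Col11a2, the level was 35560, 24440, 17310 and 10360 CPM, so each CKO sample held 0.487 and 0.424 of its paired control. That sum is over chains most of which were called. Over all 26 cartilage matrix genes the sum was 79650, 87980, 75320 and 75360 CPM, at 0.946 and 0.857 of the paired control. Matn3, which encodes matrilin 3, an adaptor bound to these fibrils, stood at 1408, 711, 607 and 317 CPM and fell by 1.19 (SE 0.21, adjusted p = 0.00565). Its CKO samples lay below both controls, with pair ratios of -1.21 and -1.16. The replicate 1 samples had the higher level of most of these genes in both genotypes.

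Other matrix genes did not pass the test. Cnmd, the gene of chondromodulin, stood at 7099, 4390, 6743 and 3977 CPM, with pair ratios of -0.07 and -0.14. Snorc, a cartilage membrane proteoglycan, stood at 6345, 9177, 6547 and 8379 CPM. Comp, cartilage oligomeric matrix protein, stood at 2940, 4032, 3206 and 3839 CPM. In all 3 genes the groups overlapped and the log2 change with the block was between -0.11 and 0.03. Acan, the aggrecan core protein, was nearly level in the first pair and lower in the second (2840, 4308, 2704 and 2683 CPM; log2 change -0.38, SE 0.20, adjusted p = 1). Hapln1, the link protein that ties aggrecan to hyaluronan, stood at 1011, 1518, 581 and 962 CPM and did not pass (adjusted p = 0.359). Cytl1, a secreted chondrocyte cytokine-like protein, was higher in CKO in both pairs by 1.32 and 0.27 on the log2 scale at 3210, 23050, 8027 and 27850 CPM, but differed far more between the pairs than between genotypes. Apart from Cytl1, these genes were chosen for description after their values were seen.

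**Figure D3:**
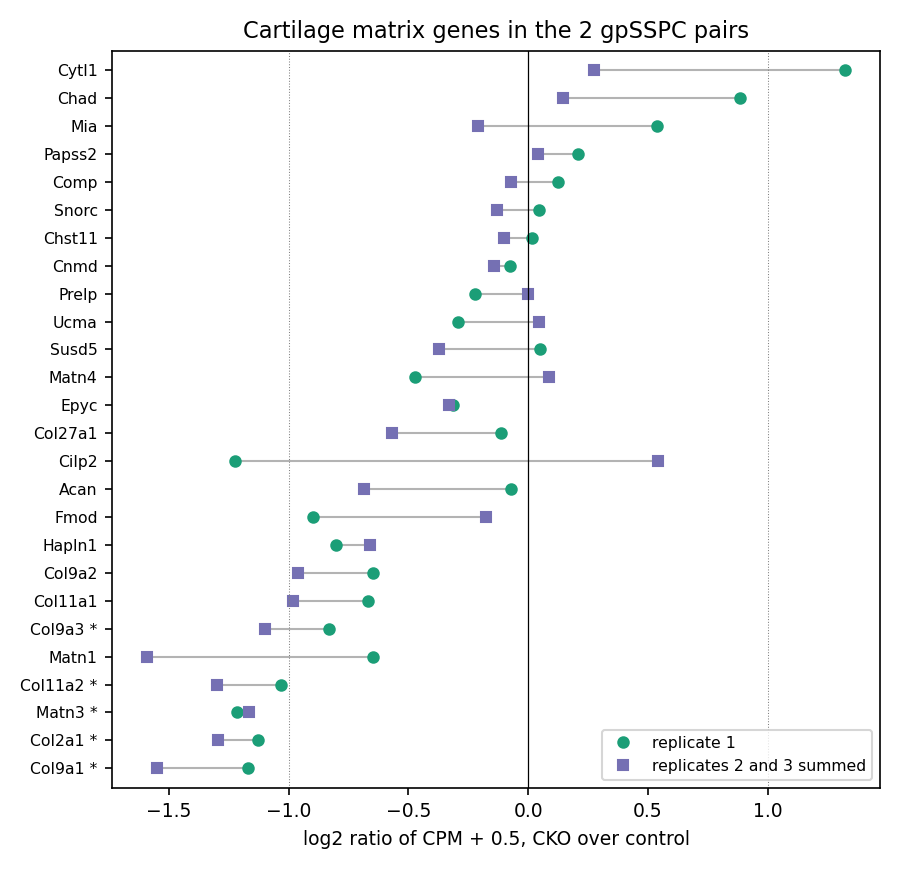
Log2 ratio of CKO over control for the 26 counted cartilage matrix genes, as a circle for the replicate 1 pair and a square for replicates 2 and 3 summed, with dotted lines at 2-fold and an asterisk on the 5 genes with an adjusted p under 0.05 with the replicate block. The genes of collagens II, IX and XI and of matrilins 1 and 3 fill the lower end with both symbols left of 0, while Cnmd, Snorc and Comp sit near 0.

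The transcription factors known to switch on these matrix genes did not pass the test. Of 14 counted chondrogenic regulators, 0 were past 2-fold or 1.5-fold in both pairs and none passed with the block. Of all genes, 1.19% were higher and 1.68% lower past 2-fold, 3.94% and 4.89% past 1.5-fold, and 0.0997% passed. With shares this small, 0 of 14 genes says little. Sox9, the master regulator of chondrocytes and an activator of Col2a1, Col9a1 and Col11a2, stood at 1661, 1010, 1413 and 1035 CPM. The groups overlapped, and the log2 change with the block was -0.10 (SE 0.20, adjusted p = 1). Its partners Sox5 (144, 161, 137 and 163 CPM) and Sox6 (103, 57.8, 70.4 and 58.9 CPM) overlapped as well, with log2 changes of -0.02 (SE 0.27) and -0.25 (SE 0.36). Both were chosen after their values were seen, and the SEs are those of the fit with the block.

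Of the hypertrophy genes, 17 of which were counted, 1 fell with the block (0.0581% of all genes) and none rose (0.0415%). In both pairs 6 were lower and 3 higher, beside 26.2% and 25.3% of all genes. Col10a1, which encodes collagen X of hypertrophic chondrocytes, stood at 988, 657, 236 and 265 CPM, with both CKO samples below both controls at 0.239 and 0.403 of the paired level. It fell by 1.68 on the log2 scale (SE 0.23, adjusted p = 0.000526). Alpl, tissue-nonspecific alkaline phosphatase of mineralising cells, stood at 892, 998, 477 and 478 CPM and missed the threshold (log2 change -0.98, SE 0.21, adjusted p = 0.063). Ihh, the signal from prehypertrophic cells, stood at 82.7, 245, 41.6 and 183 CPM with the groups overlapping, and Mmp13, the collagenase of late hypertrophic cells, at 478, 265, 477 and 318 CPM. Spp1, osteopontin, was higher in CKO in both pairs, at 1038, 3048, 1358 and 5071 CPM, and did not pass (log2 change 0.56, SE 0.19, adjusted p = 1). Ibsp, bone sialoprotein, stood at 45720, 8759, 36860 and 7970 CPM, which differed by replicate number far more than by genotype. Alpl, Ihh, Mmp13 and Spp1 were named after their values were seen.

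R3hdml, a putative peptidase inhibitor of the CAP family, stood at 325, 59.7, 57.6 and 10.9 CPM. The replicate numbers differed about as much as the genotypes, with pair ratios of -2.49 and -2.40, and control 2 and 3 lay only just above CKO 1. The log2 change with the block was -2.47 (SE 0.32, adjusted p = 0.000212) and without it -2.52 (SE 1.01, adjusted p = 1).

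Sequence upstream of the starts of collagen genes and Matn3, among the genes that fell, is shown because they moved together. R3hdml, which also fell, was not among the genes looked up. RefSeq's table for GRCm38.p6 held 9 of 11 genes looked up; Col2a1 and Col9a3 were the others. The 200 bases before the start are given 5′ to 3′, at chr1:24177410-24177609 for Col9a1, chr17:34038938-34039137 for Col11a2, chr12:8947729-8947928 for Matn3 and chr10:34389781-34389980 for Col10a1, all on the plus strand. Capitals mark matches on either strand to the motif TATAAA, known as the TATA box, to the GC box GGGCGG, which reads CCGCCC when it lies on the other strand, and to the cores ACAAAG and ACAAT bound by SOX proteins.
Col9a1: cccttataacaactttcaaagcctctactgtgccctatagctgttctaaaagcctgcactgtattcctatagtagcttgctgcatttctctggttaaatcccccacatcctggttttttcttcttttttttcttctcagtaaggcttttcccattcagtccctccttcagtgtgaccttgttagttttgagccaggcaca
Col11a2: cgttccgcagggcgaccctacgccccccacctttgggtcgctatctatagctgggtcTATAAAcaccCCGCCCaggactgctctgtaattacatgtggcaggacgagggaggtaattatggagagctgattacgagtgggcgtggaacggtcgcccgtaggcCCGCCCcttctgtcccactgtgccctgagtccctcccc
Matn3: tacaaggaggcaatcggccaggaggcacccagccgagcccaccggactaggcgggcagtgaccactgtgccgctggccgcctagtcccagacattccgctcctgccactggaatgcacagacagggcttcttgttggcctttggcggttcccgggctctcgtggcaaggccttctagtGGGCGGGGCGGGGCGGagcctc
Col10a1: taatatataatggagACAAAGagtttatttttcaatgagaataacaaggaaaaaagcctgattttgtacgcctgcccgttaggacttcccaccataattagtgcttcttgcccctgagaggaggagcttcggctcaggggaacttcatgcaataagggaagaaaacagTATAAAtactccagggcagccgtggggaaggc

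The 4 stretches share none of these letters in all. Col10a1 held TATAAA 32 bases before its start and ACAAAG 185 bases before it. Col11a2 held TATAAA 143 bases before its start and GGGCGG at 133 and 38, and Matn3 held 3 overlapping copies of GGGCGG at 22, 17 and 12. Col9a1 held none of the motifs searched. Of 32851 promoters of 250 bases, searched on both strands, 12.4% held TATAAA, 32.7% GGGCGG, 16.5% ACAAAG and 27.7% ACAAT.

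Of the 5 Serpina1 genes, mouse copies of the gene of alpha-1-antitrypsin, the liver-made inhibitor of neutrophil elastase, 4 rose in CKO gpSSPCs and Serpina1b did not pass. Of 19 counted serpins and acute phase genes, 4 rose with the block (background 0.0415%) and none fell; 13 were higher in both pairs and 2 lower, beside 25.3% and 26.2% of all genes. The list's median log2 change was 0.65 with the block, beside -0.017 for all genes. All 4 were Serpina1 copies, which share reads as described below. The study named these genes from the same libraries, so this count is no independent evidence.

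Serpina1d stood at 1077, 2005, 5023 and 5407 CPM. Both CKO samples lay far above both controls, 4.66-fold and 2.7-fold over the paired control, and the rise of 1.83 on the log2 scale (SE 0.21) had an adjusted p of 4.95e-05 with the block. Serpina1a stood at 570, 1547, 1639 and 3719 CPM. Here CKO 1 lay just above control 2 and 3, and the log2 change was 1.40 (SE 0.20, adjusted p = 0.000539). Serpina1c stood at 17.9, 63.6, 119 and 225 CPM with both CKO samples above both controls (log2 change 2.24, SE 0.34, adjusted p = 0.0011). Serpina1e stood at 20.4, 70.5, 37.7 and 370 CPM, so that CKO 1 lay between the controls and the rise of 1.73 (SE 0.35, adjusted p = 0.0446) came mostly from the second pair, at a ratio of 2.38 against 0.87. Serpina1b, at 153, 320, 228 and 551 CPM, was higher in both pairs by 0.57 and 0.78 and did not pass (adjusted p = 1). Summed over the 5 copies, the level was 1838, 4006, 7046 and 10270 CPM, 3.83-fold and 2.56-fold over the paired control.

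The copies cannot be fully separated by short reads. Their coding sequences are 1239 bases each and 96.3% to 98.5% identical between pairs of copies. Of 100-base windows along them, 61.3% in Serpina1a, 28% in Serpina1b, 61.8% in Serpina1c, 29.9% in Serpina1d and 19.1% in Serpina1e recur exactly in another copy, and the annotated span of Serpina1b contains Serpina1d on the same strand. How the counting shared such reads is not given in the sources used here, so the sum is firmer than the split. The start regions are near copies too. They are printed for 76 bases ending at the same place in each copy, from the minus strand of GRCm38.p6, with GTTAAT (a core bound by HNF1, the liver and kidney factor) in capitals. The stretches lie at chr12:103863625-103863700 (Serpina1a), chr12:103738200-103738275 (Serpina1b), chr12:103904962-103905037 (Serpina1c), chr12:103773634-103773709 (Serpina1d) and chr12:103956960-103957035 (Serpina1e).
Serpina1a: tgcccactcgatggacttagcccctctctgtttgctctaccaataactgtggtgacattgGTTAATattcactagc
Serpina1b: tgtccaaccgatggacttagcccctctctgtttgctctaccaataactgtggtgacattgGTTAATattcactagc
Serpina1c: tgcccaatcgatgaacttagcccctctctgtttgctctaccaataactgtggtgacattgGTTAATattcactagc
Serpina1d: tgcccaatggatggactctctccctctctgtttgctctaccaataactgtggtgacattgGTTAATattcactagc
Serpina1e: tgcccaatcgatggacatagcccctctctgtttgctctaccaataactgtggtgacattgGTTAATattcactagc

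GTTAAT lies 21, 26, 27, 16 and 78 bases before the RefSeq start of Serpina1a, Serpina1b, Serpina1c, Serpina1d and Serpina1e, and 6.43% of all 250-base promoters hold it on either strand. It is as present in Serpina1b, which did not pass, as in the 4 copies that did.

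Other inhibitors were higher without passing. Cst3, cystatin C, an inhibitor of cathepsins, stood at 13740, 22770, 29050 and 32900 CPM, both CKO samples above both controls (log2 change 0.81, SE 0.20, adjusted p = 0.156). Serpinb9, the granzyme B inhibitor, stood at 4.48, 10.3, 15.5 and 21.9 CPM and also separated the groups at a low level (adjusted p = 1). Timp1, an inhibitor of matrix metalloproteinases named after its values were seen, stood at 223, 386, 392 and 651 CPM (adjusted p = 0.423). The uncharacterised gene 2010001A14Rik stood at 2.04, 3.38, 89.2 and 31.8 CPM, from 5, 9 and 19 counts in the control libraries and 161, 105 and 101 in the CKO libraries. It had the largest rise of the 12 genes called, 4.16 on the log2 scale (SE 0.67, adjusted p = 0.0025).

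Genes of glycolysis and of the hypoxia response were mostly higher in CKO, each by a modest amount. None of them passed the adjusted threshold. Of 35 counted, 24 (68.57%) were higher in both pairs and 3 lower in both, against 25.3% and 26.2% of all genes, and 17 had both CKO samples above both controls, against 11.4% of all genes; 1 lay below. With the block, 12 had an unadjusted p under 0.05 with a log2 change over 0.25 and none the reverse, beside 2.12% and 1.73% of all genes tested. The median log2 change was 0.52. Past 2-fold in both pairs was Ndufa4l2 alone, past 1.5-fold 8.

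Ndufa4l2, a mitochondrial protein that limits complex I under low oxygen, stood at 191, 288, 404 and 586 CPM. Both CKO samples lay above both controls, with pair ratios of 1.08 and 1.02 and a log2 change of 1.05 (SE 0.23, adjusted p = 0.0667 with the block). Bnip3, a mitophagy receptor, stood at 59.9, 57.7, 126 and 102 CPM. Slc2a1, the glucose transporter GLUT1, stood at 32.6, 57.8, 72 and 97.9 CPM. Mif, a cytokine gene that responds to hypoxia, stood at 479, 450, 832 and 767 CPM. In all 3 the groups did not overlap, and none passed (adjusted p of 1, 1 and 0.3). Ldha, lactate dehydrogenase A, was higher in both pairs, at 601, 914, 709 and 1309 CPM, with the groups overlapping. Hif1a itself, the oxygen-regulated factor, had opposite pair ratios of -1.69 and 0.41 at 59.9, 114, 18.3 and 152 CPM. Bnip3, Slc2a1, Mif and Hif1a were named after their values were seen.

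**Figure D4:**
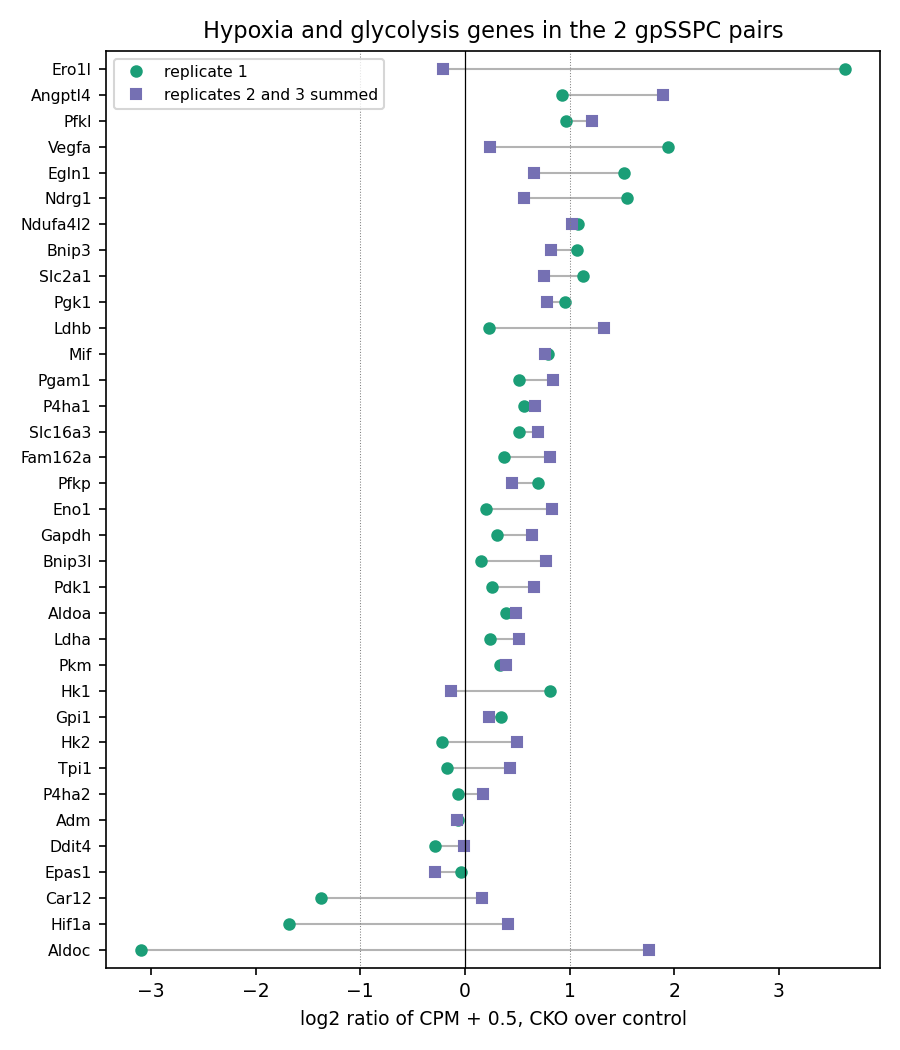
Log2 ratio of CKO over control for the 35 counted hypoxia and glycolysis genes, as a circle for the replicate 1 pair and a square for replicates 2 and 3 summed, with dotted lines at 2-fold. Both symbols lie right of 0 in 24 genes, mostly within 2-fold; no gene of the list passed an adjusted p of 0.05, so none carries an asterisk.

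Among 56 counted genes of growth plate signalling, 3 were over 2-fold higher in both pairs and 1 was over 2-fold lower, beside 1.19% and 1.68% of all genes, and none passed with the block. In both pairs 10 were higher and 15 lower, beside 25.3% and 26.2% of all genes. Sfrp5, a secreted Wnt inhibitor of the resting zone, stood at 21.6, 34, 60.4 and 81.4 CPM, with both CKO samples above both controls (log2 change 1.37, SE 0.44, adjusted p = 0.738). Fzd9, a Wnt receptor, stood at 50.1, 127, 118 and 278 CPM, and CKO 1 lay below control 2 and 3. Grem1, a BMP antagonist, had 1 count in control 1, and stood at 16.1 CPM in control 2 and 3 and at 14.4 and 35.9 CPM in CKO. Wnt5b, a Wnt ligand of prehypertrophic chondrocytes, stood at 84.4, 44.2, 38.8 and 20.8 CPM, both CKO samples below both controls. Wif1, another secreted Wnt inhibitor, was 1.94-fold and 1.96-fold higher at 119, 486, 232 and 954 CPM, where the pairs differed more than the genotypes (adjusted p = 0.115). Pth1r, the receptor for PTHrP, stood at 1626, 1402, 1151 and 654 CPM (log2 change -0.80, SE 0.21, adjusted p = 0.249).

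The genes the study names for these cells, 20 in all with 17 counted, were picked by the study on these libraries and are no independent evidence. In the pairs 4 were over 2-fold higher and 3 over 2-fold lower (1.19% and 1.68% of all genes), and with the block 4 rose and 1 fell, beside 0.0415% and 0.0581% of all genes (the Serpina1 copies and Col2a1). Il7, the lymphocyte growth factor, stood at 3.26, 5.43, 17.7 and 18.7 CPM. Both CKO samples lay above both controls, from 8, 15 and 30 counts in control libraries to 32, 44 and 77 in CKO libraries (log2 change 2.08, SE 0.97, adjusted p = 1). Its adjusted p was 0.0314 in DESeq2 on each library as a sample. Tnn, tenascin W, stood at 55.8, 22.3, 18.8 and 8.02 CPM, with pair ratios of -1.54 and -1.42 (adjusted p = 1). Nrde2, a nuclear RNA-processing factor, stood at 25.3, 11.9, 3.88 and 5.09 CPM and also separated the groups (adjusted p = 1).

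Apoe, apolipoprotein E, stood at 584, 1142, 1142 and 2131 CPM, 1.95-fold and 1.87-fold over the paired control, and missed the threshold (log2 change 0.93, SE 0.20, adjusted p = 0.063). Anxa9, Nadsyn1 and Cavin4 were lower in CKO in both pairs but had too few counts to enter the pair counts. Their counts in control and CKO replicates 1 to 3 were 35, 6 and 10 against 1, 0 and 0 for Anxa9, the gene of an annexin, which was too low to be tested. They were 14, 8 and 11 against 1, 0 and 0 for Nadsyn1, an NAD synthetase, and 13, 13 and 28 against 1, 0 and 2 for Cavin4, a caveolar protein of muscle (both adjusted p = 1).

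Cxcl9 and Cdkn1a differed between the pairs. Cxcl9, the interferon-induced chemokine, was lower in the first pair (8.56 against 4.43 CPM) and higher in the second (44.5 against 170 CPM), with ratios of -0.88 and 1.92. Cdkn1a, which encodes the cell cycle inhibitor p21, stood at 1198, 747, 1154 and 1236 CPM, level in the first pair and 1.65-fold higher in the second. Bcl3, an NF-kB cofactor, stood at 20.4, 20.1, 77.6 and 32.7 CPM and was higher in both (adjusted p = 1). Fn1 (fibronectin, 3629, 3088, 2459 and 2692 CPM) and Lum (lumican, 959, 1806, 788 and 1455 CPM) were lower in both pairs by under 1.5-fold and did not pass. Lrp4, the agrin and sclerostin receptor, stood at 105, 23.5, 65.9 and 7.87 CPM with the groups overlapping.

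Inflammatory and stress programmes had no member past the adjusted threshold in the fit with the block. The counts that follow stand beside 25.3% of all genes higher and 26.2% lower in both pairs, 3.94% and 4.89% past 1.5-fold, and 1.19% and 1.68% past 2-fold. Of 26 counted cytokines and chemokines, 13 were higher in both pairs and 2 lower, with 3 higher and 0 lower past 1.5-fold and Il7 alone past 2-fold. The MHC and antigen presentation list had 14 of 24 higher and 2 lower, none past 2-fold, with a median log2 change of 0.35. ER stress and chaperone genes had 19 of 35 higher and 5 lower, with Psat1 and Chac1 past 2-fold. Of 31 interferon-response genes 12 were higher and 3 lower in both pairs, with 1 higher and 0 lower past 1.5-fold. Of 22 NF-kB genes 8 were higher and 5 lower, with 4 higher and 0 lower past 1.5-fold. Of 7 cell cycle inhibitor genes 0 were higher and 2 lower, with 0 past 1.5-fold, and none of these 3 lists had a gene past 2-fold in both pairs. Of 21 p53 targets 8 were higher and 2 lower in both pairs, with 3 higher and 0 lower past 1.5-fold, and 1 was past 2-fold, the repair endonuclease gene Ercc5 at 8.96, 4.46, 32.1 and 17.3 CPM (adjusted p = 1). Of 30 proliferation genes 12 were lower and 11 higher in both pairs; past 1.5-fold 3 were lower and 4 higher, and past 2-fold 2 were lower, Ccnb1 and Plk1 (the latter named after its values were seen). The list's median was -0.44 with the block, but its median pair ratios were -0.35 and 0.11. Ccnb1, the mitotic cyclin B1, stood at 11.8, 2.77, 2.22 and 0.154 CPM, which is 4, 0 and 1 counts in the CKO libraries.

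Of the remaining lists, fibrous matrix (42 counted) had Tnn alone past 2-fold, lower, immediate early genes (23) had Fosl1 alone, lower, and YAP targets (24) had Pkd1 alone, higher. The lamin and nuclear envelope (18), BCL2 and caspase (28), integrin (21), proteasome (31), iron and oxidative (23) and circadian (13) lists had 0 past 2-fold either way. Of all genes 25.3% were higher and 26.2% lower in both pairs, 3.94% and 4.89% past 1.5-fold, and 1.19% and 1.68% past 2-fold. In both pairs 7 fibrous matrix genes were higher and 17 lower, 6 immediate early genes higher and 4 lower, and 6 YAP targets higher and 8 lower. The lamin list had 6 higher and 0 lower, BCL2 and caspases 7 and 7, integrins 4 and 7, proteasome 11 and 3, iron and oxidative 9 and 2, and circadian 5 and 4. Past 1.5-fold no list of this paragraph had more than 2 genes in a direction. Lmna, the gene of prelamin A, the substrate of ZMPSTE24, stood at 596, 856, 626 and 1097 CPM, with pair ratios of 0.07 and 0.36 and overlapping groups (log2 change 0.22, SE 0.21, adjusted p = 1).

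The genes with the largest agreeing ratios were mostly low in counts. With at least 10 CPM in a group, 89 of the 111 higher genes and 105 of the 157 lower ones remained, of which 14 and 7 are gene models without a name. The largest smaller ratio upward was that of Lrrc20, at 0.815, 3.26, 14.4 and 48.4 CPM, from 2, 7 and 20 counts in control libraries to 26, 137 and 177 in CKO libraries (log2 change 3.96, SE 0.90, adjusted p = 0.103). It was followed by Tmem59l, at 4.08, 0.724, 40.5 and 12.5 CPM (adjusted p = 0.26). Tyrobp, an adaptor of myeloid receptors, stood at 1.22, 0.362, 16.1 and 5.86 CPM, and Agr2, Cdsn, Myh7b, Rab42, Zfp385c, Gemin4, Ttc9, Kctd15 and Corin complete the 12 with a gene name. The gene model 2010001A14Rik, with pair ratios of 5.14 and 3.06, ranks among them by size but was left out of this naming, as were all gene models. Downward, Parm1 stood at 23.6, 6.52, 0.554 and 0.617 CPM, from 58, 22 and 32 counts in control to 1, 2 and 2 in CKO (adjusted p = 0.672). Ackr4, a scavenging chemokine receptor, stood at 17.5, 7.24, 1.66 and 0.925 CPM, and Sox10, a transcription factor of glia that is also found in cartilage, at 17.9, 3.02, 1.11 and 0.463 CPM. R3hdml, Krtcap3, Pcp4l1, Lig3, Ddx25, Mbnl3, Dnph1, Arnt2 and Peg12 complete that side. Of these 24 named genes R3hdml passed with the block and the others did not, and 2010001A14Rik passed as well. In DESeq2 on each library as a sample, Lrrc20 (adjusted p = 0.000136) and Cdsn (0.0141) were among those that passed. R3hdml did not pass there (0.415), and replicates 2 and 3 count there as separate samples.

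Cell type markers show what the sorted samples held. All 12 chondrocyte markers were found, and their sum was 50310, 38100, 31180 and 22000 CPM; 10 were lower in CKO in both pairs and none higher, beside 26.2% and 25.3% of all genes, and 5 fell with the block (background 0.0581%). Those 5 are Col2a1, Col9a1, Col9a3, Col11a2 and Matn3, the calls already counted in the cartilage matrix list. Without Col2a1 the sum was 26230, 22960, 20150 and 15820 CPM. Osteoblast markers, led by Ibsp, summed to 57010, 21350, 56800 and 17850 CPM and periosteal and fibroblast markers, led by Prg4 (lubricin of joint surfaces), to 9723, 28580, 8696 and 35300 CPM. Ibsp made up most of the osteoblast sum in replicate 1, at 45720 CPM in control and 36860 CPM in CKO. In replicates 2 and 3 it was a smaller part, at 8759 and 7970 CPM. Prg4 made up most of the other sum in replicates 2 and 3, at 17960 and 23690 CPM. In replicate 1 it was a small part, at 1168 and 1445 CPM. Without Ibsp the other 7 osteoblast markers summed to 11290, 12590, 19930 and 9880 CPM, which is 1.77-fold the control in the first pair and 0.785 of it in the second. Of the 8 osteoblast markers 3 were past 2-fold in opposite directions in the pairs, beside 2.16% of all genes. The median pair ratios of the 8 were 0.65 and -0.42, and none passed with the block. Without Prg4 the other 8 periosteal and fibroblast markers summed to 8556, 10620, 7250 and 11610 CPM, lower in CKO in the first pair and higher in the second. The part of osteoblast RNA in the genotype ratios was not tested. Nt5e, the gene of CD73, by which the cells were sorted, was detected in every sample at 237, 195, 135 and 317 CPM, with opposite pair ratios, and Ly6a, the gene of the stem cell marker Sca-1, at 290, 819, 348 and 800.4 CPM.

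Markers of cells that the gate should remove were also counted. Erythroid markers summed to 20, 6544, 17.2 and 2853 CPM, with Hbb-bs at 4.08, 2594, 2.22 and 1161 CPM. They were thus high in replicates 2 and 3 of both genotypes, higher in control than in CKO there, and near 0 in replicate 1. Basophil markers summed to 0.815, 24.7, 0.554 and 130 CPM, led by Mcpt8 at 0, 13.9, 0 and 80.7 CPM. Macrophage markers, led by Ctsk, summed to 154, 275, 161 and 262 CPM with 2 of 12 at 0, neutrophil markers to 12.6, 15.3, 10.5 and 25.1 CPM with 3 of 8 at 0, and lymphoid markers to 13.9, 8.21, 9.97 and 19.7 CPM. Endothelial markers were higher in CKO in both pairs, at 41.6, 46.6, 115 and 66.2 CPM, led by Plvap at 17.9, 16.2, 83.7 and 26.8 CPM. Ptprc (CD45) stood at 0, 0.241, 0 and 5.55 CPM and Pecam1 (CD31) at 1.22, 9.17, 3.88 and 7.56 CPM. The part of these cells in the genotype ratios was not tested.

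Of the remaining markers, those of tendon summed to 1932, 1423, 1085 and 1397 CPM, of marrow stroma to 334, 743, 666 and 610, of Schwann cells to 262, 376, 275 and 463, of muscle to 203, 340, 282 and 294, of pericytes and smooth muscle to 17.9, 76.5, 36 and 57.8, and of adipocytes to 18.3, 68.2, 80.4 and 71.7 CPM. None of these sums separated control from CKO in both pairs by more than the pairs differed. Sex genes, led by Xist, summed to 129, 103.5, 96.4 and 71.1 CPM, with 3 of 5 at 0. In that sum both CKO samples lay below both controls, and no sex gene passed with the block. Mitochondrial transcripts made up 2.70%, 1.29% and 1.38% of counts in control replicates 1 to 3 and 2.40%, 1.33% and 1.44% in CKO, so they followed the replicate number as well.

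The change was next compared with that in periosteal stem and progenitor cells (pSSPCs, 3 control and 3 CKO libraries summed in the same way), which carried the same deletion. The summing and the pairing by replicate number were taken over from gpSSPCs and were not checked in the pSSPC libraries. Without a block none of 13173 genes had a genotype effect that differed between the populations at an adjusted p of 0.05, and 125 did at an unadjusted p of 0.05 (0.949%). With a block for replicate number within each population 7 did (0.0531%): Serpina1d, Serpina1a, Cst3 and Gsn with the more positive change in gpSSPCs, and Col2a1, Fn1 and Prg4 with the more negative. Col2a1 stood at 4267, 2211, 3881 and 1933 CPM in pSSPCs, with pair ratios of -0.14 and -0.19 there against -1.13 and -1.29 in gpSSPCs. Serpina1d stood at 686, 698, 628 and 587 CPM in pSSPCs, with ratios of -0.13 and -0.25 against 2.22 and 1.43. For Gsn, Fn1 and Prg4 the larger ratios were in pSSPCs. Fn1 did not pass in gpSSPCs, with pair ratios of -0.56 and -0.20, and rose in CKO pSSPCs, with 0.73 and 1.02 (adjusted p = 3.23e-07 with the block). Gsn, an actin-severing protein, was level in gpSSPCs at 7208, 7600, 7056 and 7541 CPM and lower in CKO pSSPCs, and Prg4 was higher in CKO in both populations. Of the 111 genes over 2-fold higher in both gpSSPC pairs, 8 were over 2-fold higher and 4 over 2-fold lower in both pSSPC pairs; of the 157 lower genes 5 were lower and 6 higher. Over all 9355 genes 233 (2.49%) were over 2-fold higher and 190 (2.03%) over 2-fold lower in both pSSPC pairs, beside 7.21% and 3.6% of the 111 and 3.82% and 3.18% of the 157.

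**Figure D5:**
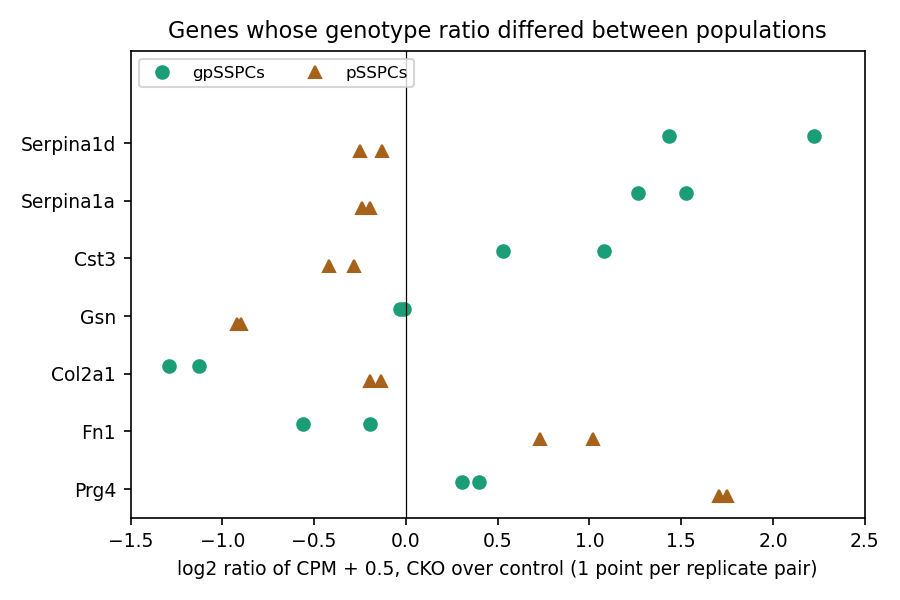
Log2 ratio of CKO over control for the 7 genes whose genotype effect differed between gpSSPCs (circles) and pSSPCs (triangles) with the replicate block, 1 symbol per replicate pair. The symbols of the populations do not overlap in any of the 7 genes, and in Serpina1d, Serpina1a, Cst3 and Fn1 they lie on opposite sides of 0.

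Chromatin accessibility at the starts of these genes was read from the peaks of 6 gpSSPC ATAC-seq libraries, 3 of each genotype, as a description, since peaks were called per library and the libraries differ in depth. Of 9347 counted genes with an annotated start, 93.4% had a peak within 500 bases of a start in all 6 libraries, 4.27% had none, 1.7% had one in more control libraries and 0.289% in more CKO libraries. Col2a1, Col9a1, Col9a3, Col11a2, Matn3, R3hdml, Serpina1a, Serpina1c, 2010001A14Rik and Sox9 had a peak in all 6. Serpina1d had one in 3 control and 2 CKO libraries, and Col10a1 and Serpina1e in none. Among the 111 higher genes 82.0% had a peak in all 6 and among the 157 lower ones 84.7%; in each set 8 genes had a peak in more control libraries and 0 in more CKO libraries. Control replicates 1, 2 and 3 had 98549, 93028 and 88095 peaks from 19271923, 18009251 and 40668538 tags, and CKO replicates 84100, 76856 and 68961 peaks from 12941435, 15154444 and 39801835 tags. Each control library thus had more peaks than every CKO library, also in replicate 3, where the tags of the genotypes were close, and the deepest library of each group had the fewest peaks.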

How the data were processed

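The authors deposited 1 gene count table per library, made from 1000 sorted cells by a modified Smart-seq2 protocol with molecular identifiers; adapters were trimmed, reads aligned to mm10 with STAR, counted with HTSeq and duplicates removed. Whether counting used strand is not given in the sources used here. The deposited ATAC-seq peak files hold a pileup signal and a −log10 p per peak from MACS2 2.2.7.1 on Bowtie2 alignments; only peak positions were used. The deposited counts were fitted in edgeR 4.0.16 (R 4.3.3): summed replicates 2 and 3, trimmed mean of M values, filterByExpr, quasi-likelihood test, Benjamini-Hochberg adjustment over all genes. DESeq2 1.42.0 was an alternative. Each SE printed is edgeR's absolute log2 change divided by the square root of the test's F statistic. It does not describe the spread between the samples of a group. Scripts were tested on simulated data. The labels only number the replicates, and their pairing comes from the correlations in the gpSSPC data. For pSSPCs the pairing was assumed to be the same. As replicates 2 and 3 count as 1 sample, the correlations rest on 2 pairs. The fits had 2 samples per group, with 2 residual degrees of freedom without the block and 1 with it.

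Named were Zmpste24 and the study's genes, the 12 agreeing genes per direction with the largest smaller ratio (at least 10 CPM, gene models counted but not named), up to 4 agreeing members and the most abundant member of each list, and genes past the interaction threshold. The members, lists and rules were chosen with earlier results of these data known. The annotation was GENCODE M21 (GRCm38, as mm10); promoters came from RefSeq GRCm38.p6.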

Additional observations from a re-analysis of the deposited data

Results flagged for a closer look

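In 7 genes the change with genotype differed between gpSSPCs and pSSPCs in the interaction of edgeR's quasi-likelihood fit with the replicate block, and in none without the block. The log2 change in gpSSPCs minus that in pSSPCs was 2.07 for Serpina1d (adjusted p = 7.9e-05), 1.66 for Serpina1a (adjusted p = 0.00428), 1.21 for Cst3 (adjusted p = 0.000337) and 0.94 for Gsn (adjusted p = 0.00295). It was -0.99 for Col2a1 (adjusted p = 0.00847), -1.20 for Fn1 (adjusted p = 0.0167) and -1.32 for Prg4 (adjusted p = 7.9e-05). Fn1 stood at 2649, 3185, 4390 and 6447 CPM in pSSPCs (control 1, control 2 and 3, CKO 1, CKO 2 and 3) and Prg4 at 2180, 9092, 7324 and 29680 CPM, so Prg4 was higher in both CKO pairs of both populations. Cst3 stood at 10070, 10600, 7524 and 8724 CPM and Gsn at 42230, 24920, 22690 and 13190 CPM in pSSPCs. Each call rests on 2 samples per group and on the block, whose pairing was not checked in pSSPCs.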

How the results depend on the processing

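In edgeR 0 genes passed in either direction without the replicate block; with it 5 rose and 7 fell. The unblocked counts were 1 and 2 with no filter on low counts, 1 and 0 in DESeq2 on summed samples, 18 and 8 in DESeq2 on each library (5 of the 12 among them), and 0 to 1 and 0 to 3 leaving out 1 library (1 and 3 without CKO replicate 1, 0 otherwise). Genes at an unadjusted p under 0.05 with log2 change over 0.25, 37 higher and 20 lower, were 255 and 208 with the block, 118 and 63 with no filter, 65 and 41 in DESeq2 on summed samples, 332 and 302 in DESeq2 on each library, 253 and 269 with each library as a sample, 872 and 799 with that and the block, and 33 to 82 and 12 to 138 leaving out 1 library. The blocked calls became 19 and 9 with DESeq2 size factors, 20 and 13 with no filter, 24 and 18 without replicate 3, and 0 and 0 without replicate 2 or with each library as a sample. In these alternatives the 12 genes kept their direction. Genes past 2-fold in both pairs, 111 and 157, were 369 and 457 at 1.5-fold, 10 and 13 at 4-fold, 43 and 57 with at least 50 counts, 65 and 82 with at least 2 CPM, and 86 to 108 and 122 to 157 without replicate 3 or 2. List members past 2-fold, 13 and 11, were 41 and 25 at 1.5-fold, where cartilage matrix had 9 lower. The interaction had 0 genes, and 7 with the block. Leaving out 1 library moved the log2 change of Zmpste24 between -1.74 and -0.37.

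Signs turned for Nt5e (-0.034 with the block) and Pecam1 (-0.032 with each library as a sample, -0.021 in DESeq2 on each library), and when 1 library was left out for Lum (-0.66 to 0.079, positive without CKO replicate 1), Lrp4 (-3.03 to 0.66), Ly6a (-0.49 to 0.54) and Pecam1 (-0.64 to 0.52), the last 3 without control replicate 1. The cause was not tested. With 2 samples per group and 1838028 to 5035209 counts per library, low genes such as Zmpste24 could not be measured closely.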
